A study of Mus musculus with 18 samples.

Results

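Kinesins are motor proteins that use ATP to move along microtubules or to change microtubule ends. In neurons the transport kinesins carry vesicles, mitochondria and RNA granules from the cell body into axons and dendrites, which makes them the main motors of outward axonal traffic. Mitotic kinesins build the spindle and move chromosomes in dividing cells, and a motoneuron that has left the cell cycle makes little of most of them. The kinesin motor family was taken here as every gene whose symbol in the array annotation is Kif followed by a number and at most 1 letter, except 3 genes not reported here. This gave 34 genes of the 18191 measured, each read by 1 probe set, the one of highest mean level over the 18 arrays among those that name a single gene. From their textbook roles, 13 were grouped as transport kinesins, 9 as mitotic, 5 as microtubule-regulating and 5 as cilium-linked, and Kif12 and Kif28 were left without a class.

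The 18 Affymetrix arrays form 6 groups of 3. Axonal RNA came from motoneurons infected with a lentivirus that expresses a short hairpin RNA against Smn (axonal Smn knockdown), with the empty vector, or left untreated (wild-type), and somatodendritic RNA, that of cell bodies and dendrites, came from the same 3 treatments. All cells were motoneurons of the spinal cord of E12.5 mouse embryos, enriched by p75 panning and held for 7 days in chambers that lead axons through narrow channels into a space of their own. The neurotrophic factor BDNF (20 ng/ml) was given to axons only, and the survival factor CNTF (5 ng/ml) to both compartments. Sample titles number the knockdown arrays in a series apart from that of the controls, and whether they were handled together is not stated. Whether the 3 arrays of a group stand for 3 cultures is not stated, so p-values measure the spread between arrays only. Both lentiviral groups carry a vector that the wild-type groups lack. Smn1, the targeted gene, lay above the background level on 1 of 18 arrays and was not called in either somatodendritic knockdown comparison, so its probe set does not show whether the knockdown worked.

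Values are the deposited log2 values. Each array was given a background level, the value that 95% of 163 probe sets for genes of unrelated tissues stay under, and a gene is called above background in a group if all 3 arrays exceed it. Between 9989 and 10608 genes exceeded it on a somatodendritic array and between 4924 and 9502 on an axonal one. The correlation with the mean of the somatodendritic controls over all genes was 0.539 to 0.712 on the axonal knockdown arrays, 0.705 to 0.884 on the axonal empty vector arrays and 0.814 to 0.891 on the axonal wild-type arrays. The first knockdown array and the second empty vector array were the lowest of their groups. The labelled cell type was checked against its markers. All 10 pan-neuronal markers were above background in each somatodendritic group, but of 10 motoneuron markers only Prph and Ret were above it on every somatodendritic array, and 5 of them, among them the acetylcholine-synthesizing enzyme Chat and the transcription factor Mnx1, were above it on no array. Since these are bulk samples, fewer cells of a type and less RNA per cell cannot be told apart.

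Of the 34 kinesins, 20 were above background in the somatodendritic Smn knockdown group, 24 in the empty vector group and 24 in the wild-type group. In axons the numbers were 7 for Smn knockdown, 9 for empty vector and 15 for wild-type. In the same order, the somatodendritic shares were 58.8%, 70.6% and 70.6% of kinesins, beside 54.4%, 54.0% and 53.8% of all genes. The axonal shares were 20.6%, 26.5% and 44.1% of kinesins, beside 18.7%, 27.5% and 37.6% of all genes, so the axonal counts fell together with those of all genes. All 13 transport kinesins were above background in both somatodendritic control groups, and 12 in the somatodendritic knockdown group. Among the 9 mitotic kinesins it was 1 in the somatodendritic knockdown group and 4 in each somatodendritic control group. In axons 5 transport kinesins were above background in every group, and 1 mitotic kinesin, Kif22, reached it on all arrays of a single axonal group, the empty vector one. Kif2b, Kif14, Kif15, Kif18a, Kif20b, Kif6, Kif9, Kif24, Kif12 and Kif28 were above background in no group, so their values carry little signal.

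**Figure D1:**
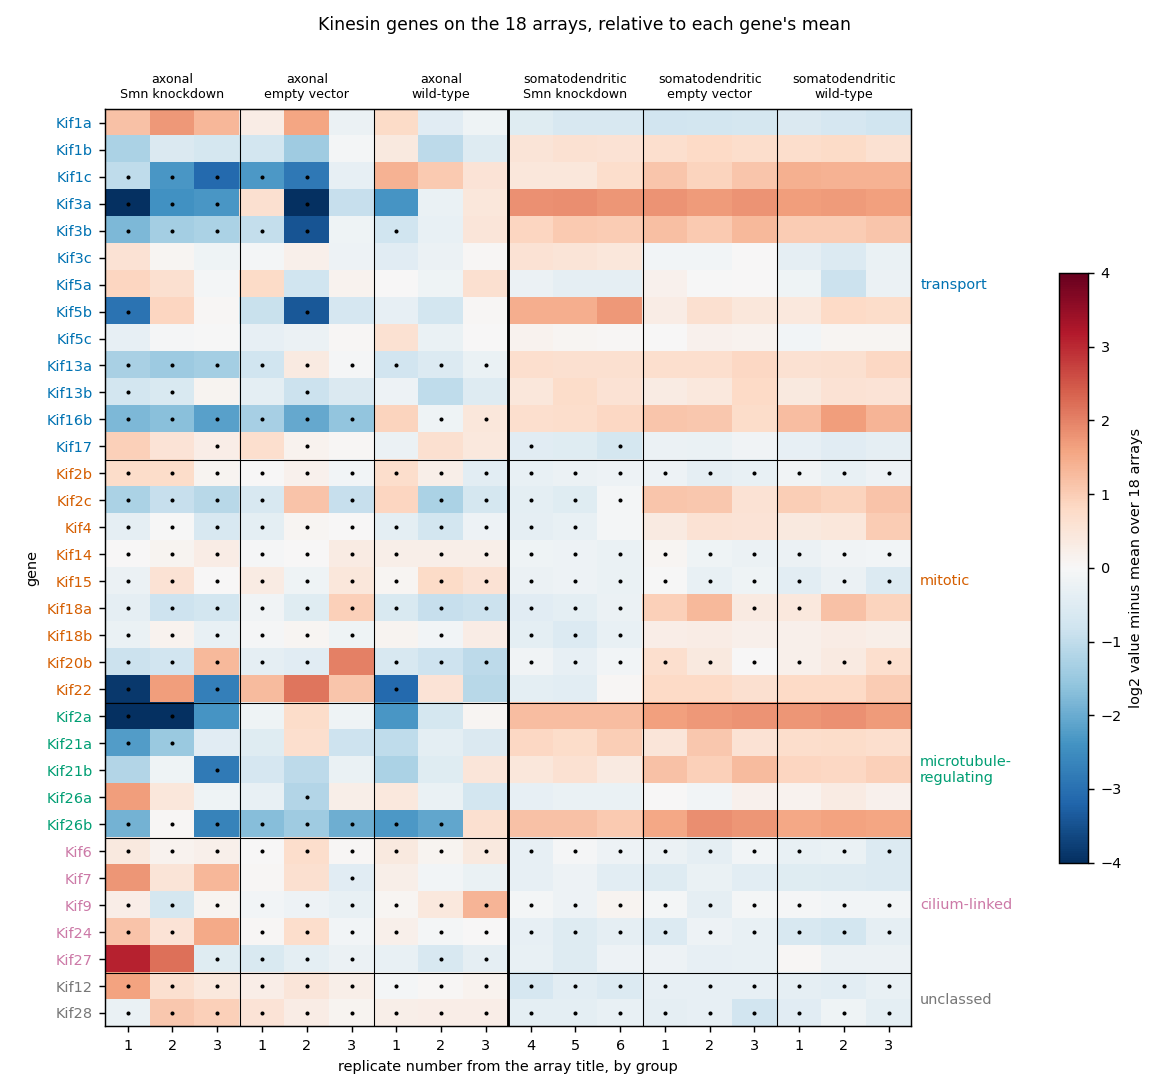
Each row is a kinesin gene and each column an array; colour gives the log2 value minus the mean of that gene over the 18 arrays, and a black dot marks a value at or below the background level of the array. Dots fill much of the axonal columns and most mitotic rows, while all 13 transport kinesins are above background in both somatodendritic control groups.

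Genes used in mitosis often share 2 short promoter elements, a TTTGAA element and a CCAAT box, and the mitotic members were therefore read for both. The windows ran from 250 bases before to 50 bases after the start site, as RefSeq places it on build GRCm38.p6, and 29 of the 34 kinesins had one. Kif5a, Kif5b, Kif13b, Kif21b and Kif28 were not matched. Some windows belong to a start site inside the gene and were counted like the others. The Kif2c window (chr4:117178723-117179022, minus strand) lies inside a gene that reaches 117182624. The Kif1a window with a match (chr1:93082431-93082730, minus strand) lies inside one that reaches 93102039. A gene was counted if any of its windows held a match, so genes with several start sites had more chances. Searched on both strands, TTTGAA occurred in 7 of 9 mitotic kinesins with a window (77.8%), in 1 of 10 transport kinesins, Kif1a, and in 5466 of 27025 genes (20.2%). CCAAT occurred in 5 of 9 mitotic kinesins, 3 of 10 transport kinesins and 41.1% of all genes. Both elements occurred in 4 mitotic kinesins, in 0 transport kinesins and in 8.97% of all genes. Among 27 mitotic genes outside the family with a window, 20 held TTTGAA. The stretches below are those of all 6 mitotic kinesins that fell in the somatodendritic knockdown arrays, followed by those of the transport kinesins Kif1c and Kif17, which fell there too, and Kif3c, which rose. Each covers 110 bases before and 25 bases from the start site, with the letters of either element in capitals. Of the 6 mitotic members 5 held TTTGAA and 3 held CCAAT, while Kif18a and the 3 transport members held neither element in their whole windows. A match is a description of these letters only.
Kif2c, chr4:117178748-117178882, minus strand: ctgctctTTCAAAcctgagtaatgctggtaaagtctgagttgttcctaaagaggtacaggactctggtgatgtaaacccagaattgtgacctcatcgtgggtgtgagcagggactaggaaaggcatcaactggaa
Kif18a, chr2:109280628-109280762, plus strand: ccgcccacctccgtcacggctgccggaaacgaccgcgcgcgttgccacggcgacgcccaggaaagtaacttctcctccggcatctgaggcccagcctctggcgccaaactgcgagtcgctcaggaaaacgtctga
Kif22, chr7:127042396-127042530, minus strand: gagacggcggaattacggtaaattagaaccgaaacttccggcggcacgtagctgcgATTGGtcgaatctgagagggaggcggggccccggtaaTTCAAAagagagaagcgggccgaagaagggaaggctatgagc
Kif4, chrX:100625955-100626089, plus strand: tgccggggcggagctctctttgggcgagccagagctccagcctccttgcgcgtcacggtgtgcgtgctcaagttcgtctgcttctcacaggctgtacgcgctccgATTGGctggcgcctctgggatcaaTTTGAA
Kif18b, chr11:102925100-102925234, minus strand: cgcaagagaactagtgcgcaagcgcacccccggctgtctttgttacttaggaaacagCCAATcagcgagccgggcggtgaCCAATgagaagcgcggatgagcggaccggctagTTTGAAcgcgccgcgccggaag
Kif20b, chr19:34922248-34922382, plus strand: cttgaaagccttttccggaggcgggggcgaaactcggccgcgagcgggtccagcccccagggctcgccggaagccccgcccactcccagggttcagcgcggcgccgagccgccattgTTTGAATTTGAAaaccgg
Kif1c, chr11:70700438-70700572, plus strand: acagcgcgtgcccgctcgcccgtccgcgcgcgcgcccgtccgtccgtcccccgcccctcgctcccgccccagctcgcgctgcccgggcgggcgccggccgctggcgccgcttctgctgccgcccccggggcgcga
Kif17, chr4:138262141-138262275, plus strand: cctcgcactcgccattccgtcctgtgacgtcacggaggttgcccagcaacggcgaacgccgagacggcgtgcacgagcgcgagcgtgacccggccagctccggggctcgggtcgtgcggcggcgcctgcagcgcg
Kif3c, chr12:3365022-3365156, plus strand: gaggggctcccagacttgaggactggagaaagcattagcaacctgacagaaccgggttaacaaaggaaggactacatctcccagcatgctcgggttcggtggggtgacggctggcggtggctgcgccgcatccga

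The first comparison asked how Smn knockdown changed the kinesins in the somatodendritic compartment. Against empty vector, 6 of 9 mitotic kinesins fell and none rose, while of 13 transport kinesins 2 rose, 2 fell and 9 did not pass the test. Of the microtubule-regulating kinesins 4 of 5 fell, and of the cilium-linked ones 0 of 5 changed, with 0 at an unadjusted p under 0.05. In all, 14 of 34 kinesins were called (limma with Benjamini-Hochberg adjustment over all 18191 genes, adjusted p under 0.05), 2 higher and 12 lower, or 41.2%. Over all genes the same rule called 28.0%, with 2267 genes higher and 2821 lower (15.5% lower). With only genes above background in at least 1 somatodendritic group, 50.0% of kinesins were called beside 43.6% of the genes tested. Knockdown and empty vector arrays did not overlap for 18 kinesins, 3 higher and 15 lower, beside 43.3% of all genes (19.6% higher and 23.6% lower). The median log2 difference was -0.65 for mitotic, -0.50 for microtubule-regulating, -0.07 for transport and 0.04 for cilium-linked kinesins, beside -0.02 for all genes.

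Kif2c, which depolymerizes microtubules at centromeres and corrects faulty chromosome attachments, read 5.99, 5.89 and 6.31 on the knockdown arrays, against 7.48, 7.47 and 6.96 with empty vector and 7.36, 7.26 and 7.51 in wild-type. The knockdown arrays lay below all control arrays and under background. The log2 difference from empty vector was -1.24 (SE 0.15, adjusted p 6.64e-05), which is at least 1.93-fold lower, since the knockdown side has only a bound.

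Kif18a, which limits the length of spindle microtubules at the metaphase plate, read 5.18, 5.27 and 5.39 with knockdown, against 6.59, 6.93 and 6.00 with empty vector and 6.06, 6.82 and 6.52 in wild-type. The groups did not overlap, and the log2 difference from empty vector was -1.23 (SE 0.22, adjusted p 0.00121). No fold is given, because no group was above background on all of its arrays.

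Kif22, which pushes chromosome arms towards the spindle equator, read 8.46, 8.43 and 8.92 with knockdown, against 9.65, 9.66 and 9.48 with empty vector and 9.64, 9.66 and 9.88 in wild-type. It was 2.00-fold lower than with empty vector (log2 difference -0.998, SE 0.129, adjusted p 0.000119), and it is the only mitotic member above background in all 3 somatodendritic groups.

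Kif4, a chromosome-bound motor of the spindle midzone, read 6.18, 6.25 and 6.46 with knockdown, against 6.91, 7.11 and 7.09 with empty vector and 6.93, 7.01 and 7.54 in wild-type. The groups did not overlap, and it fell at least 1.56-fold (log2 difference -0.74, SE 0.15, adjusted p 0.00238). Kif18b, a partner of Kif2c at microtubule ends, was at least 1.35-fold lower (log2 difference -0.65), and Kif20b, a motor of the late midbody, differed by -0.56 and passed the test with every somatodendritic array under background. Kif2b, Kif14 and Kif15 were not called and were under background on every somatodendritic array.

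The probe set decided part of this count. The probe sets used for Kif2c and Kif22 carry the suffix x, which marks a design that can pick up other transcripts, and that of Kif20b carries a. Without probe sets of the suffixes x, s or a, 3 mitotic kinesins fell instead of 6. In that fit 10 of 33 kinesins were called in either direction, or 30.3% beside 26.6% of the genes tested. Kif2c then read 0.07 (adjusted p 0.713) and Kif22 -0.24 (adjusted p 0.091), each on a probe set that is under background.

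Among transport kinesins, Kif5b, the broadly expressed heavy chain of conventional kinesin, rose. It read 9.92, 9.93 and 10.2 on the knockdown arrays, against 8.76, 9.11 and 8.93 with empty vector and 8.90, 9.26 and 9.19 in wild-type. All knockdown arrays lay above all control arrays, and the rise over empty vector was 2.13-fold (log2 difference 1.09, SE 0.13, adjusted p 4.98e-05). Of its 5 probe sets above background in at least 1 somatodendritic group 4 were called higher, with log2 differences of 0.47 to 1.17, and 1 was not, at 0.01. The probe set at 1.17 was above background on 0 of 3 empty vector and 0 of 3 wild-type arrays. It entered through the knockdown group only, and its control side was not measured.

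Kif3c, a neuron-enriched motor of the kinesin-2 class, read 10.2, 10.2 and 10.1 with knockdown, against 9.57, 9.57 and 9.68 with empty vector and 9.32, 9.14 and 9.40 in wild-type. It was 1.5-fold higher than with empty vector (log2 difference 0.58, SE 0.09, adjusted p 0.00041), with no overlap between the groups. Its second probe set, also above background, read -0.03 and was not called, so the rise rests on 1 of 2 probe sets.

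The transport kinesins that fell did so by less. Kif1c, which carries dense-core vesicles and other cargo, was 1.40-fold lower (log2 difference -0.49, SE 0.10, adjusted p 0.00244). Kif17, a dendritic motor for glutamate receptor cargo, was at least 1.21-fold lower (log2 difference -0.35, adjusted p 0.0117), with a knockdown side near background. Another Kif17 probe set, above background on all somatodendritic arrays, read -0.11 and was not called, so the fall rests on the probe set used. The remaining 9 transport kinesins ranged from -0.38 for Kif5a to 0.15 for Kif1a. Kif5c, a neuronal heavy chain of conventional kinesin, read 13.5, 13.4 and 13.4 with knockdown, against 13.4, 13.5 and 13.5 with empty vector, a log2 difference of -0.01 (SE 0.09).

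Different probe sets of a transport kinesin did not always move alike. With each of 34934 probe sets fitted separately (24.4% of them called), 41 kinesin probe sets were above background in a somatodendritic group, and 9 of them were called higher and 13 lower. Kif1b, the motor of synaptic vesicle precursors and mitochondria, had 1 probe set called higher (0.66) and 2 called lower (-0.45 and -0.63), while the one used was not called (-0.16). Kif5c had a second probe set at 10.3, 10.1 and 10.4 with knockdown, against 8.52, 9.19 and 8.88 with empty vector, a log2 difference of 1.41 (adjusted p 1.79e-05). Kif3a, a motor subunit shared by transport and cilium building, had 2 probe sets called higher (0.82 and 0.61). The brighter one used read 0.06, and another bright one read -0.22 and was not called.

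Of the microtubule-regulating members, Kif21b, a motor that pauses microtubule growth, read 9.31, 9.47 and 9.22 with knockdown, against 10.0, 9.82 and 10.1 with empty vector and 9.70, 9.67 and 9.81 in wild-type. It fell 1.58-fold against empty vector (log2 difference -0.66, SE 0.10, adjusted p 0.000431), and the groups did not overlap. Kif26b and Kif26a, relatives of kinesins whose motor domains lack ATPase activity, were 1.51-fold and 1.24-fold lower, and Kif2a, a microtubule depolymerase that restrains axon branching, was 1.41-fold lower. Kif21a, the close relative of Kif21b, differed by 0.14 and was not called.

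**Figure D2:**
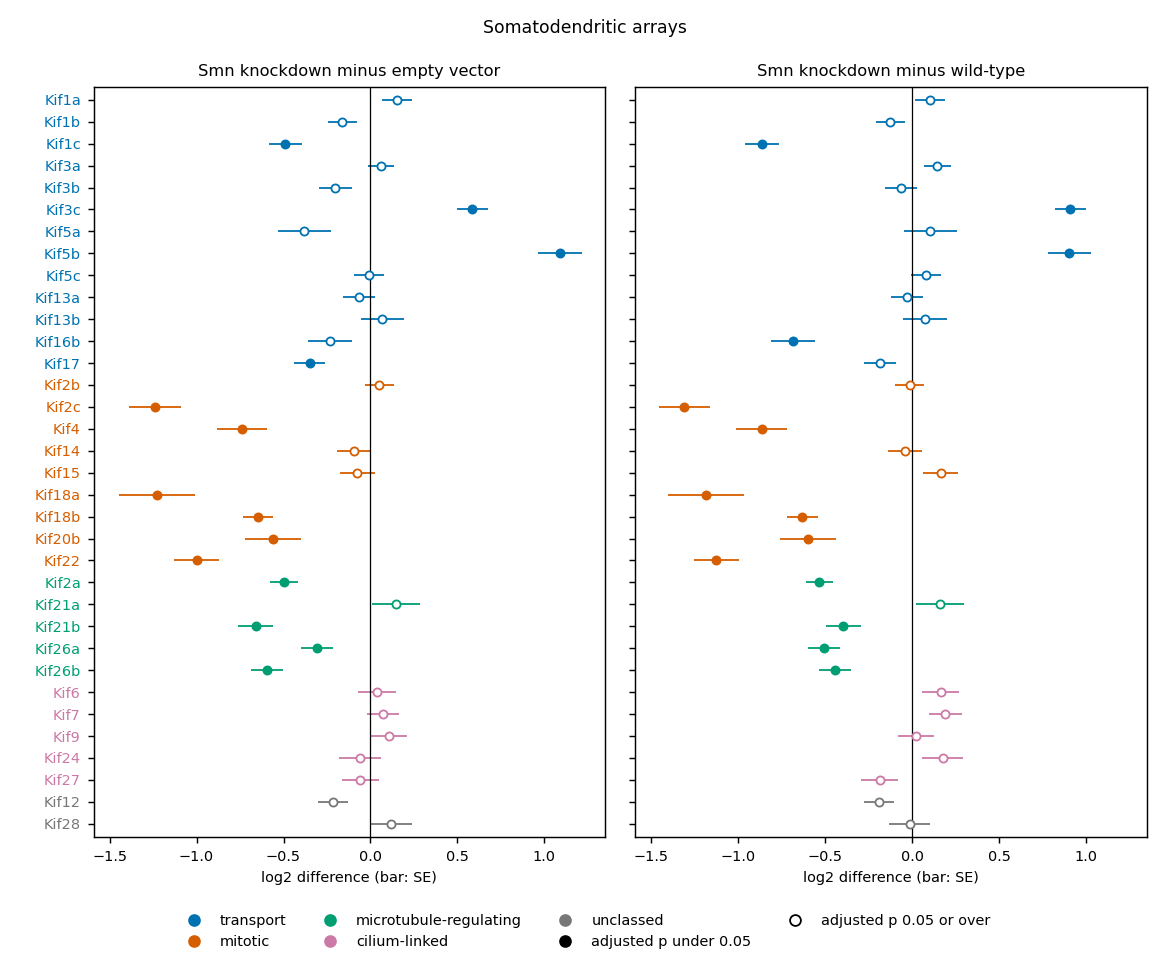
Log2 differences (horizontal axis) of the 34 kinesins in the somatodendritic compartment, knockdown minus empty vector on the left and knockdown minus wild-type on the right, with limma's standard error as bars; filled circles passed an adjusted p of 0.05. On both sides 6 mitotic and 4 microtubule-regulating kinesins are filled and lie left of 0, and Kif5b and Kif3c are filled and lie right of it.

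Against wild-type, which shares the knockdown arrays with the comparison above, 14 kinesins were again called, 2 higher and 12 lower (41.2%, beside 36.0% of all genes, 15.6% higher and 20.4% lower). Of them 13 were also called against empty vector. With only genes above background in at least 1 somatodendritic group, 50.0% of kinesins were called beside 53.9% of the genes tested. Without probe sets of the suffixes x, s or a it was 30.3% beside 34.1%. The share of kinesins called against wild-type thus did not exceed that of all genes in these settings. Kif17 was called only against empty vector, and Kif16b, an early endosome motor, only against wild-type, at -0.69 against wild-type and -0.23 against empty vector. The difference of knockdown from wild-type was 0.90 for Kif5b, 0.91 for Kif3c, -1.31 for Kif2c and -1.13 for Kif22. Empty vector against wild-type gave 0 called kinesins in the somatodendritic compartment, with 6 at an unadjusted p under 0.05 and 2.00% of all genes called. The lowest adjusted p was 0.0787, for Kif1c. Leaving out the third wild-type array gave 1 call, a higher Kif3c, beside 7.74% of all genes called.

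**Figure D3:**
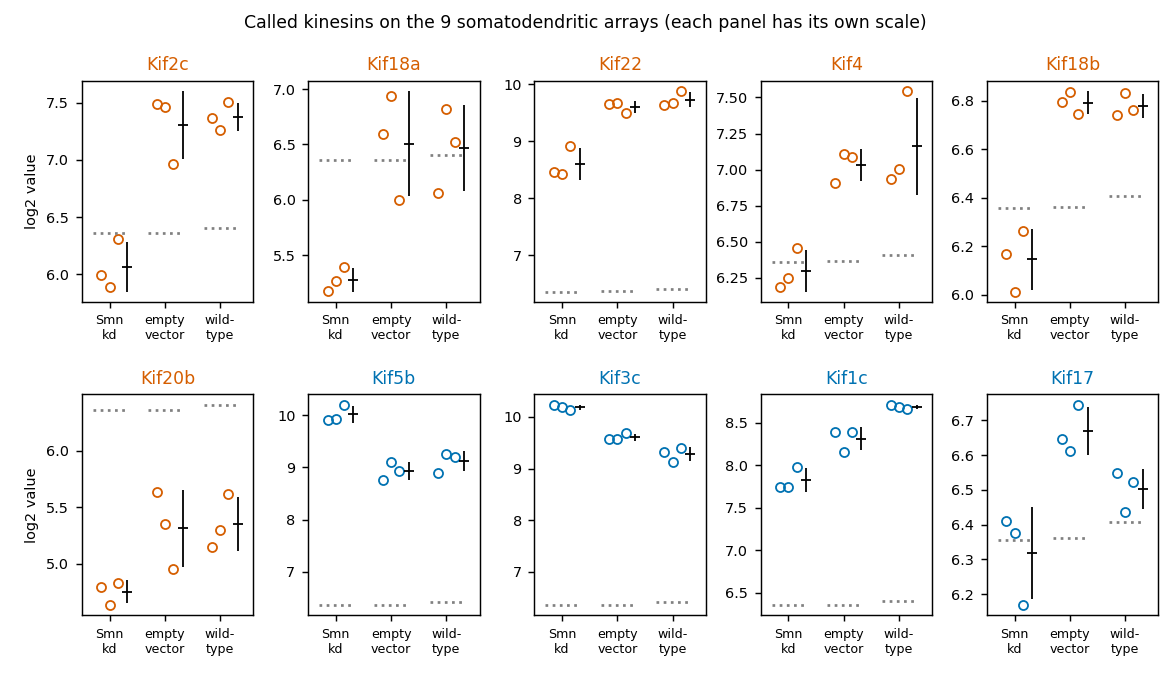
Log2 values of 10 called kinesins on the 9 somatodendritic arrays; circles are arrays (kd, Smn knockdown), the black dash and bar are the mean and SD of 3 arrays, and the dotted line is the mean background level of the group where it lies in the range shown. The 6 mitotic members (orange) and Kif1c and Kif17 are lower on all knockdown arrays than on all control arrays, and Kif5b and Kif3c are higher on all of them.

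Other genes of the same processes were counted beside the family. Of 29 mitotic genes outside the family 26 fell against empty vector and 0 rose, with a median log2 difference of -1.12. The lowest p-values were those of Bub1, a spindle checkpoint kinase (-1.99, at least 2.19-fold lower), Anln, a cytokinesis scaffold (-2.03), and the kinetochore proteins Cenpf (-1.74) and Cenpe (-1.44). Of 25 kinesin partners and adaptors 4 rose and 3 fell, 28.0% of the list beside 28.0% of all genes. Map7d1, a microtubule protein that recruits conventional kinesin, rose 2.89-fold and Madd, an adaptor of Kif1 motors, 1.57-fold. Grip1, which links Kif5 to glutamate receptors, fell 1.49-fold and Zfyve27, the Kif5-binding protein protrudin, 1.36-fold.

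Markers of other cells moved in the same comparison. All 14 microglia and macrophage markers rose against empty vector, with array means of 8.39 to 8.77 in knockdown, 5.94 to 6.31 with empty vector and 7.93 to 8.06 in wild-type. All 8 interferon-induced genes rose as well. Of the dividing or glial types, 6 of 10 astrocyte, 6 of 9 oligodendrocyte and 5 of 10 neural progenitor markers fell and none of these rose. Their array means were 9.33 to 9.76 in knockdown and 9.94 to 10.1 with empty vector for astrocytes, 6.96 to 7.63 and 7.93 to 8.43 for the oligodendrocyte lineage, and 8.17 to 8.46 and 8.76 to 8.94 for progenitors. Of the fibroblast and meningeal markers 2 of 10 fell, of the Schwann and neural crest ones 1 of 7 rose and 1 fell, and of the pan-neuronal ones 1 of 10 rose and 4 fell. The 3′ minus 5′ difference of Gapdh probe sets, a sign of RNA length, was 3.99 to 4.12 in knockdown, 3.53 to 3.68 with empty vector and 3.11 to 3.61 in wild-type. The part of these shifts in the kinesin changes was not tested.

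In axons, Smn knockdown against empty vector gave 0 called kinesins, with 5 at an unadjusted p under 0.05 and 0.176% of all genes called. Kif2a had the lowest adjusted p, 0.0719, and is described below. Kif13a, a motor of recycling endosomes, followed with a log2 difference of -1.20 (adjusted p 0.126), but no array of either group was above background and no fold is given. Of 25 partners and adaptors, Grip1 alone was called, at least 4.66-fold lower (log2 difference -4.23, adjusted p 0.0376). Against wild-type 0 kinesins were called and 9 had an unadjusted p under 0.05, beside 0.0990% of all genes called. The lowest adjusted p was that of Kif16b, 0.0593, with a log2 difference of -2.28. It was above background on 0 of 3 knockdown arrays and 1 of 3 wild-type arrays, and no fold is given. The empty vector arrays differed from wild-type by nearly as much, at -2.05 (adjusted p 0.957). Knockdown differed from empty vector by -0.23 (adjusted p 0.781), with 0 empty vector arrays above background. Empty vector against wild-type also gave 0, with 3 at an unadjusted p under 0.05 and 0.00% of all genes called.

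Several axonal values were spread widely within a group. Kif22 read 4.98, 10.5 and 6.11 on the axonal knockdown arrays, against 10.1, 11.01 and 9.97 with empty vector and 5.76, 9.40 and 7.73 in wild-type, and the difference from empty vector of -3.17 (SE 1.41) did not pass the test. Kif27, a cilium-linked member, read 9.96, 9.07 and 6.38 with knockdown, against 6.27, 6.49 and 6.63 with empty vector. Here 2 knockdown arrays stood high and the third did not, and the adjusted p was 0.227. Kif5b read 5.50, 9.33 and 8.50 with knockdown, against 7.56, 5.08 and 7.78 with empty vector, a log2 difference of 0.97 (SE 1.03), and a change of Kif5b in axons was not detectable at this spread. Markers of other cells differed among the axonal arrays too. The array means of the 14 microglia and macrophage markers were 6.45 to 9.22 with knockdown, 5.72 to 6.03 with empty vector and 6.93 to 10.2 in wild-type, with 0 of them called against empty vector, and 1 of 8 interferon-induced genes was called higher. Their part in the axonal kinesin values was not tested.

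The next comparison set axonal against somatodendritic RNA over the 6 control arrays of each compartment. The arrays of each compartment were normalized apart, so a difference is relative to all genes of that compartment, whose median difference was 0.18. The median was -1.11 for transport, -1.55 for microtubule-regulating, -0.61 for mitotic and 0.48 for cilium-linked kinesins. Of 34 kinesins 23 were called, 8 higher and 15 lower in axons, or 67.6% beside 61.6% of all genes (35.7% higher and 25.9% lower). Among transport kinesins Kif1a and Kif17 were higher, 8 were lower, and Kif3c, Kif5a and Kif5c did not pass the test.

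Kif1a, the fast motor of synaptic and dense-core vesicle precursors, ranged from 6.96 to 8.96 with a median of 7.46 in axonal controls, against 6.596 to 6.82 with a median of 6.68 in somatodendritic controls. The compartments did not overlap, and Kif1a was 2.01-fold higher in axons (log2 difference 1.01, SE 0.26, adjusted p 0.00526). It is the only kinesin called higher that was above background on all control arrays of both compartments.

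Kif5c ranged from 13.01 to 13.9 with a median of 13.2 in axonal controls, against 13.3 to 13.5 with a median of 13.4 in somatodendritic controls, a log2 difference of -0.10 (SE 0.14). Kif5a, the neuronal heavy chain mutated in human spastic paraplegia, ranged from 9.93 to 11.5 with a median of 10.8, against 9.87 to 10.9 with a median of 10.6, a log2 difference of 0.29 (SE 0.25). For both genes the compartments overlapped. Kif1b ranged from 10.7 to 12.52 with a median of 11.5 in axonal controls, against 12.7 to 12.9 with a median of 12.8 in somatodendritic controls, and was 2.42-fold lower in axons (adjusted p 0.000829). With each probe set fitted separately, another above background was also called lower, at -1.03. Those at -0.48, 0.47 and 0.70 were not called, so the fold holds for the probe set used.

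Kif3a ranged from 5.21 to 10.0 with a median of 8.80 in axonal controls, against 11.04 to 11.2 with a median of 11.1 in somatodendritic controls. It was at least 5.63-fold lower in axons (log2 difference -2.83, SE 0.67, adjusted p 0.003), with 5 of 6 axonal arrays above background. Kif3b, its motor partner, was lower as well (-1.98), while Kif3c, the other partner of Kif3a, differed by 0.11. With each probe set fitted separately (61.1% of all probe sets called), the second Kif3c probe set, above background on all control arrays, was called lower in axons at -1.37 (adjusted p 0.00257). Likewise Kif17 read 0.57 on the probe set used, which was called, and -0.14 on another above background, which was not. For Kif3a, another probe set above background in at least 1 group was also called lower, at -2.35 (adjusted p 0.00154). Those at -0.62 (adjusted p 0.0612) and -0.46 (adjusted p 0.387) were not called, so the size of the Kif3a difference depends on the probe set.

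Kif26b ranged from 4.70 to 7.66 with a median of 5.18 in axonal controls, against 8.56 to 8.87 with a median of 8.601 in somatodendritic controls. It was at least 3.22-fold lower in axons (log2 difference -3.12, SE 0.48, adjusted p 0.000186), and 1 of 6 axonal arrays was above background. Kif2a ranged from 7.81 to 10.9 with a median of 9.95 in axonal controls, against 11.8 to 11.96 with a median of 11.9 in somatodendritic controls. The compartments did not overlap, and Kif2a was 4.53-fold lower in axons (log2 difference -2.18, SE 0.41, adjusted p 0.000761).

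Kif28 and Kif15 were called higher in axons, at 0.70 and 0.62, but both were under background on every control array, and no fold is given. Kif28 ranged from 4.24 to 4.68 with a median of 4.40 in axonal controls, against 3.38 to 3.95 with a median of 3.77 in somatodendritic controls. Kif15 ranged from 5.01 to 5.95 with a median of 5.56 in axonal controls, against 4.64 to 5.16 with a median of 4.91 in somatodendritic controls, so that its ranges overlapped. Kif6, Kif12, Kif14 and Kif24 were likewise called higher with no control array above background.

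Under joint quantile normalization of all 18 arrays 14 kinesins were called, 4 higher and 10 lower, or 41.2% beside 32.6% of all genes. The class medians were then -0.89 for transport, -0.70 for microtubule-regulating, -0.17 for mitotic and 0.35 for cilium-linked kinesins. The 4 higher were all transport kinesins, Kif1a (1.30), Kif17 (0.73), Kif3c (1.00) and Kif5a (1.05), and the median of all genes was 0.15. As deposited, the other probe sets above background read -1.37 for Kif3c and -0.14 for Kif17, so both calls hold for the probe set used. Kif14, Kif2b, Kif22 and Kif26a changed sign under that scaling. Kif1c read -1.64 on the probe set used and 0.78 on another. The other was above background on all axonal control arrays but on 1 of 3 arrays in each somatodendritic control group. Its somatodendritic side was thus mostly not measured. Beside these values, 8 of 10 astrocyte markers and 22 of 29 mitotic genes outside the family were lower in axons, with medians of -2.64 and -2.12, and 8 of 10 pan-neuronal markers were lower, with a median of -1.40.

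**Figure D4:**
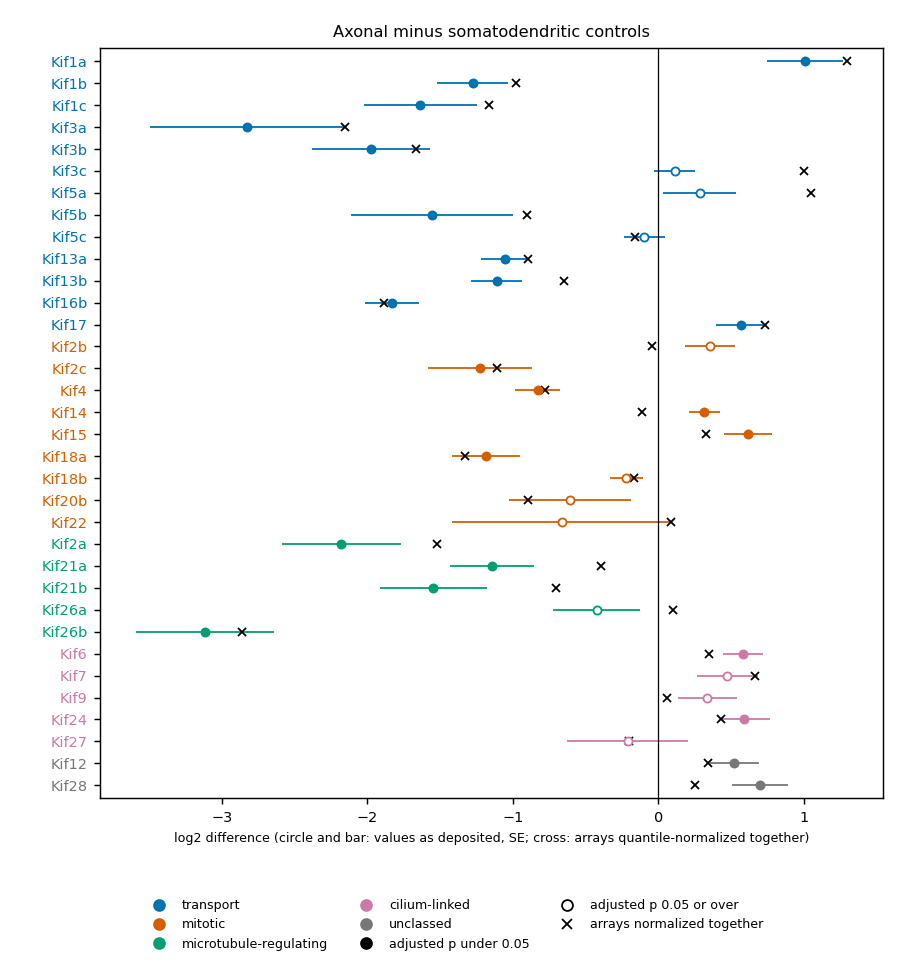
Log2 difference (horizontal axis) of axonal minus somatodendritic controls for the 34 kinesins; circles and bars are the values as deposited with limma's standard error, filled where the adjusted p was under 0.05, and crosses are the values after all arrays were normalized together. Kif1a lies right of 0 in both, and Kif3c and Kif5a lie near 0 as deposited and at 1.00 and 1.05 after joint normalization.

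The last comparison tested whether the knockdown effect against empty vector differed between axons and the somatodendritic compartment. It was called for 1 of 34 kinesins, Kif2a, beside 6.77% of all genes. Kif2a read 5.45, 5.56 and 7.78 on the axonal knockdown arrays, against 9.95, 10.9 and 9.95 with empty vector and 7.81, 9.43 and 10.2 in wild-type. The knockdown arrays lay below all axonal control arrays, and 2 of them were under background. In the somatodendritic compartment Kif2a read 11.4, 11.4 and 11.4 with knockdown, against 11.8, 11.9 and 11.9 with empty vector and 11.9, 11.96 and 11.8 in wild-type, again without overlap.

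The axonal difference of Kif2a from empty vector was -3.996 (SE 0.78, adjusted p 0.0719), at least 6.29-fold lower, and the somatodendritic one was -0.50 (SE 0.08, adjusted p 0.000578). The difference between them was -3.50 (SE 0.82, adjusted p 0.024). It was no longer called when any somatodendritic knockdown or empty vector array was left out (adjusted p 0.0554 to 0.0611). A second Kif2a probe set read 4.99, 5.80 and 5.47 on the axonal knockdown arrays, against 7.87, 5.10 and 5.87 with empty vector, so that the groups overlapped. It was above background on 0 of 3 axonal knockdown, 1 of 3 axonal empty vector and 2 of 3 axonal wild-type arrays, which limits the fall it could show. The probe sets also differed on the axonal empty vector arrays. The second of these arrays was the highest on the probe set used (10.9) and the lowest on the other (5.10). With the second probe set, which has the larger interquartile range, the difference between compartments was -0.34 (adjusted p 0.886). The difference thus holds for the probe set used.

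**Figure D5:**
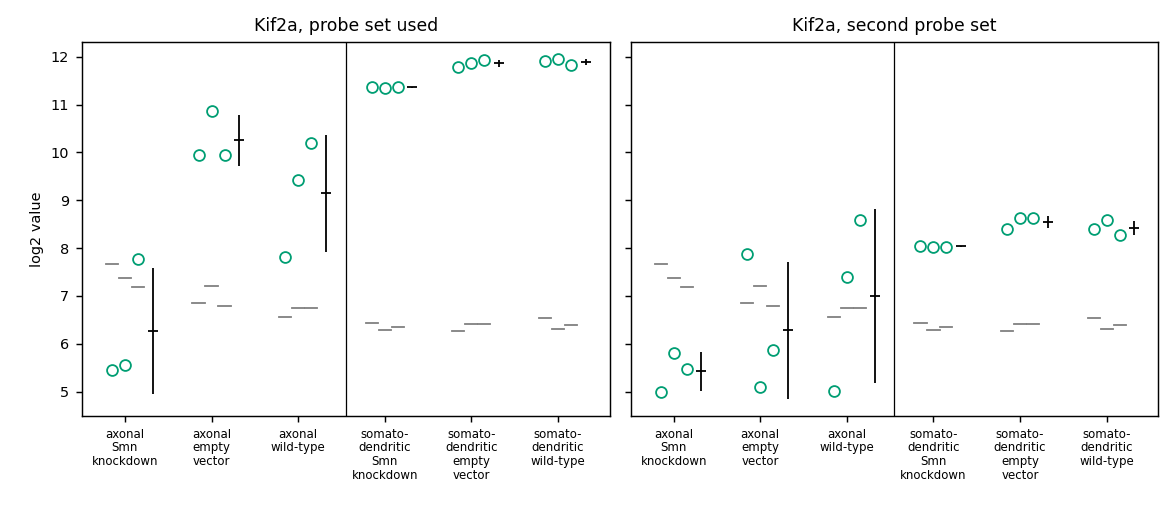
Log2 values of Kif2a on the 18 arrays for the probe set used (left) and a second one (right); circles are arrays, the black dash and bar are the mean and SD of 3 arrays, and short gray lines are the background level of each array. On the left the axonal knockdown arrays at 5.45, 5.56 and 7.78 lie below every axonal control array, and on the right, where most axonal arrays are under background, they overlap the axonal empty vector arrays.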

How the data were processed

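RNA was measured on 18 Affymetrix Mouse430_2 arrays after 2 rounds of linear amplification, per the labels' protocols. The authors deposited log2 values for 45101 probe sets. The program behind them was not given in the sources used here. Arrays share a common distribution within each compartment (median 5.77 somatodendritic, 5.95 axonal). Genes were named from the platform annotation, with 34958 probe sets naming 1 gene.

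Linear models were fitted with limma 3.58.1 under R 4.3.3 (lmFit, eBayes), after a check on simulated data, over the 9 arrays of a compartment, or all 18 between compartments. SE is limma's. Groups of 3 arrays limit the precision. Axonal arrays vary more than somatodendritic ones, and the 18-array fits share 1 spread. Titles of the control arrays share their numbers across treatments and compartments, and what the numbers mark is not stated. Of 18 correlations of same-numbered arrays, taken on deviations from group means, 1 exceeded 0.1 (-0.19 to 0.23). With 3 arrays a group this cannot exclude a pairing. The main fits left the arrays unpaired.

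Per-array values (lowest, median and highest over 6 control arrays) were given for kinesins called in an axonal comparison or the interaction, the 5 largest called rises and falls with knockdown against empty vector, the 3 largest called differences each way between compartments, and the 3 transport kinesins with the highest axonal control means. Kif5b, Kif27, Kif22 in axons and second probe sets were added after their values were seen. The members and lists were chosen with earlier results of these data known. Up to 4 genes of an outside list were named by lowest p. Fitting each probe set separately was also chosen after seeing the data. Promoters are RefSeq's. Alternatives were probe set choice, filters, normalization, fit settings and leaving out arrays.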

Additional observations from a re-analysis of the deposited data

Results flagged for a closer look

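The knockdown effect on Kif2a, a microtubule depolymerase, differed between the compartments by the test of that difference, axonal minus somatodendritic, at -3.50 on the log2 scale (adjusted p 0.024, 18-array limma fit). All 3 axonal knockdown arrays lay below all 3 axonal empty vector arrays, and all 3 somatodendritic ones below theirs. On a second Kif2a probe set the difference was -0.34 (adjusted p 0.886). That probe set was above background on 0 of 3 axonal knockdown and 1 of 3 axonal empty vector arrays, which limits the fall it could register. The probe sets also differed on the second axonal empty vector array, which read 10.9 on the one used and 5.10 on the other. The flagged difference thus holds for the probe set used.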

How the results depend on the processing

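With all 18 arrays in 1 fit, which gives both compartments 1 spread, the number of called kinesins was 0 for somatodendritic knockdown against empty vector (14 in the 9-array fit), 1 against wild-type (Kif3c), 6 for axonal knockdown against empty vector, 9 against wild-type and 2 for axonal empty vector against wild-type. The share of all genes called in these 5 fits was 0.566%, 0.792%, 20.7%, 24.6% and 0.291%, in the same order. Axonal knockdown against empty vector gave 1 call with the probe set of largest interquartile range (Kif1a, higher, beside 0.247% of all genes). It gave 1 with genes above background only (Kif2a, lower, beside 1.98% of the genes tested). Against wild-type, trend and robust eBayes gave 1 (Kif16b, lower, beside 0.126% of all genes). Between compartments, joint quantile normalization gave 14 calls (beside 32.6% of all genes) instead of 23 (beside 61.6%). The interaction gave 3 (Kif1a, Kif24, Kif2a), beside 16.6% of all genes, without the first axonal knockdown and second axonal empty vector arrays. These arrays were the lowest of their groups in correlation with the somatodendritic controls. Leaving out 1 array gave 0 to 1 call for somatodendritic empty vector against wild-type, with 7.74% of all genes called in the fit that gave 1. For the interaction it gave 0 to 4 calls. There were 3 without the second axonal empty vector array (beside 14.5% of all genes) and 4 without the second axonal knockdown array (beside 12.9%). Kif3c was reversed at -0.032 with the probe set of largest interquartile range, and Kif2c at 0.071 without suffixes x, s and a; the cause was not tested beyond the change of probe set. Of 213 values of named kinesins under alternatives 194 kept direction and call, 17 lost the call and 2 were reversed. With the replicate block, paired by array number, the counts were 0 for somatodendritic and axonal empty vector against wild-type (0.902% and 0.00% of all genes). They were 0 for both axonal knockdown comparisons (0.00% of all genes) and 23 between compartments (62.0%). Somatodendritic knockdown arrays share no numbers with the controls and could not be blocked, and the axonal knockdown numbers come from another title series than those of the controls, so that block joins digits which the labels do not tie together. Dim axonal arrays limit what can be seen there.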

Other observations

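A second probe set of Kif1a, the vesicle motor, read 10.5, 9.95 and 10.1 on the axonal knockdown arrays, against 7.14, 6.75 and 7.30 with empty vector and 8.70, 6.83 and 7.77 in wild-type. All knockdown arrays lay above all axonal control arrays. The log2 difference from empty vector was 3.11 (SE 0.45), with an adjusted p of 0.0523 over all probe sets, and on the somatodendritic arrays it was -0.15, where this probe set is under background. The Kif1a probe set used elsewhere read 8.56, 9.12 and 8.72 on the same axonal knockdown arrays and 7.69, 8.96 and 7.18 with empty vector. These overlapped, and the difference of 0.86 (SE 0.51) had an adjusted p of 0.417.

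The second Kif5c probe set that rose in the somatodendritic knockdown arrays read 11.1, 11.6 and 10.5 on the axonal knockdown arrays, against 8.50, 8.11 and 9.24 with empty vector and 11.3, 8.83 and 8.61 in wild-type. The knockdown and empty vector arrays did not overlap, but 1 wild-type array reached the knockdown values, and the difference from empty vector of 2.44 (SE 0.70) had an adjusted p of 0.146. The Kif5c probe set used elsewhere read 13.02, 13.3 and 13.3 on the same knockdown arrays and 13.01, 13.1 and 13.4 with empty vector.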
